A study of Mus musculus with 6 samples.

Results

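The phagocyte NADPH oxidase was followed through the mRNA of 5 genes, Cybb, Cyba, Ncf1, Ncf4 and Rac2, taken by symbol as a named set, with earlier results of these data known. They are 5 of 24054 genes in the deposited expression table. RNA-seq had been made of c-Kit+ splenocytes from 6 mice, 1 library per mouse, after selection with magnetic beads against CD117, the c-Kit receptor of blood progenitors. Both groups carried an internal tandem duplication of the receptor kinase gene Flt3 on both alleles (Flt3ITD/ITD). In the AML group, named for acute myeloid leukaemia, 3 mice also carried Dnmt3afl/-, a floxed and a null allele of this DNA methyltransferase gene, together with MxCre, a Cre recombinase driven by an interferon-inducible promoter that is active in blood and other tissues. The 3 mice of the MPN group (myeloproliferative neoplasm) were Dnmt3afl/fl, and their labels name no Cre. Genotype, Cre and disease state therefore changed together between the groups. The labels give no ages and no drug treatment, and recombination of the floxed allele by Cre is not stated in the titles. Replicate numbers only name mice.

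The oxidase is the enzyme with which neutrophils, monocytes and macrophages turn oxygen into superoxide. Its catalytic core lies in the membrane and is a heterodimer of gp91phox, encoded by Cybb, and p22phox, encoded by Cyba, and each partner stabilises the other. In a resting cell the organising subunit p47phox (Ncf1) and p40phox (Ncf4) wait in the cytosol with their partners. On stimulation they move to the membrane together with a Rac GTPase, which in neutrophils is mainly Rac2. Loss of a core or cytosolic subunit causes chronic granulomatous disease. During myeloid development these genes are switched on along with other genes of maturing phagocytes, and factors of the ETS and IRF families, such as PU.1 and IRF8, are known to act at the Cybb promoter.

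Promoter sequence was taken from RefSeq on GRCm38.p6 for the 3 members that had an entry, Cybb, Ncf1 and Cyba; Ncf4 and Rac2 had none. These windows are shown because Cybb and Ncf1 were the members that passed the test described below and Cyba, the partner of Cybb, came next to the threshold. Each runs from 250 bases before to 50 after the annotated start, 5′ to 3′ on the strand of the gene, which is the minus strand for all 3. Capitals mark matches, on either strand, to the motifs GAGGAA (ETS type), GGAA, any 2 bases, GAAA (ETS and IRF together) and GAAA, any 2 bases, GAAA (IRF type). The Cybb window lies at chrX:9469275-9469574, the Ncf1 window at chr5:134229576-134229875 and the Cyba window at chr8:122432891-122433190. The Cybb window lies inside the gene span given below (9435252 to 9487771), which comes from another annotation with a start further upstream. Which start these cells use was not tested.
Cybb: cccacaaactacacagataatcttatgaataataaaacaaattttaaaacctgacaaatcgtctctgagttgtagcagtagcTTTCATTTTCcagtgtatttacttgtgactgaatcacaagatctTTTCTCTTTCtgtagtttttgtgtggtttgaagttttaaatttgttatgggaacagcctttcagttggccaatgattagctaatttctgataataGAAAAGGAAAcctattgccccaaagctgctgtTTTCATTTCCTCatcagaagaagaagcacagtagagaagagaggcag
Ncf1: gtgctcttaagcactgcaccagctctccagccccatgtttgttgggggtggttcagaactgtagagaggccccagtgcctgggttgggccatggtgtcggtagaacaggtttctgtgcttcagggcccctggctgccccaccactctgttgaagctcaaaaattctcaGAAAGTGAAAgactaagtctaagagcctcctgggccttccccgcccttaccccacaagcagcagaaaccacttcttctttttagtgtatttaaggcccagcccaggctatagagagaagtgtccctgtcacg
Cyba: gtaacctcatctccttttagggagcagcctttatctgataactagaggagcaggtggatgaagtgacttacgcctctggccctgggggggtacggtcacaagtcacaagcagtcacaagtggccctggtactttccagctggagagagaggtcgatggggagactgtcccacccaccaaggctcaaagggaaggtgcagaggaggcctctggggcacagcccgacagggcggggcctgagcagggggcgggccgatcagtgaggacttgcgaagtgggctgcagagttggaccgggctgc

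In the Cybb window the combined ETS and IRF motif was found once, as TTTCATTTCC from base 4 to base 13 after the start, counted from 1 at the start. It overlaps a GAGGAA match, read as TTCCTC, from base 10 to base 15. The IRF-type motif was found 3 times in Cybb, from -168 to -159, -124 to -115 and -29 to -20, and once in Ncf1, from -82 to -73, where it reads GAAAGTGAAA. The Cyba window held none of these letters. Of 32851 promoter windows of the same length, 28.3% held GAGGAA, 2.72% the combined motif and 3.44% the IRF-type motif. Another pattern, TTGCNNAA (C/EBP type), was in 10.8% of all windows and in 0 of these 3. These are matches of letters and were not tested as binding sites.

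Expression was deposited as TPM, a measure of transcript abundance scaled to transcript length that has the same sum in every library. AML was compared with MPN by limma on log2(TPM + 1) over the 12223 genes that reached 1 TPM in 3 or more of the libraries, with p-values adjusted over all of them by the Benjamini-Hochberg method. All 5 members passed that filter. Of the tested genes, 30.1% were called at an adjusted p under 0.05, 10% as lower in AML and 20.1% as higher. Groups did not overlap for 50.9% of them, and for 16.1% this was with AML lower. Against that background 2 of the 5 members were called lower, Cybb and Ncf1, and 0 higher. For 4 of 5, all but Rac2, every AML library lay below every MPN library. The median log2 fold change was -0.66 over the members and 0.13 over all tested genes. In bulk RNA, fewer cells of a type and less RNA per cell cannot be told apart. No source used here says that mice of a group were from separate litters or batches. The file headers name run 966 for MPN replicate 1 and run 979 for the other 5 libraries. Relative depth, read from the steps of a second deposited table in RPKM, was 0.744 to 1.30 times the median library. Kit, the selection marker, ranged from 99.2 to 130 TPM over the AML libraries and from 145 to 152 TPM over the MPN libraries. Xist and the Y-linked Ddx3y marked AML replicates 1 and 2 as female and the other 4 mice as male.

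**Figure D1:**
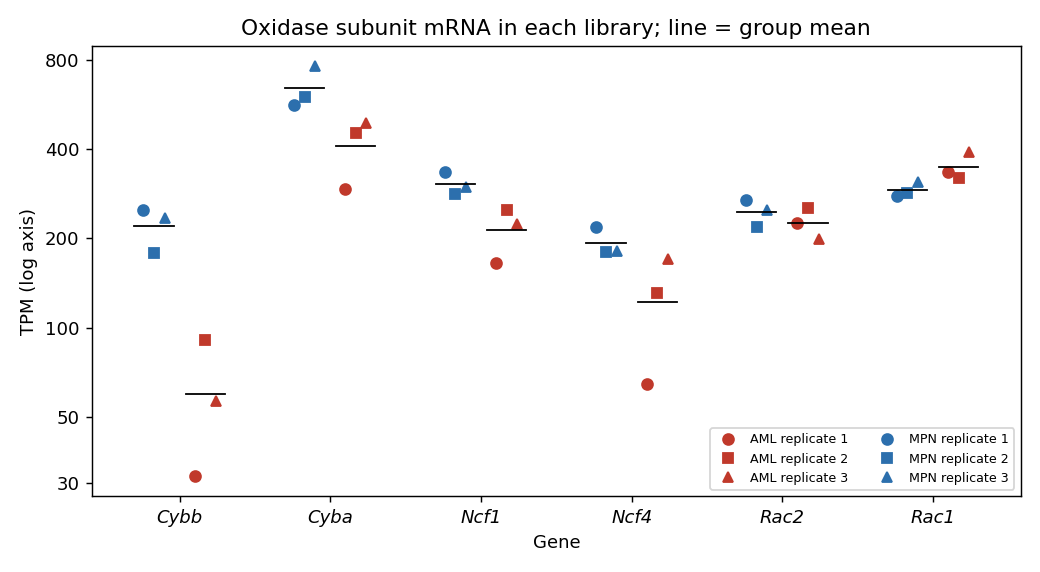
TPM of the oxidase subunit genes and of Rac1 in each library, on a log axis, with MPN in blue, AML in red and a line at each group's mean (3 mice each). Cybb shows the widest gap, from at most 91.0 TPM in AML to at least 178 TPM in MPN, and Rac2 overlaps.

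Cybb, the catalytic subunit, fell in AML to 27.1% of its MPN level. It stood at 31.7, 91.0 and 56.5 TPM in AML replicates 1 to 3 and at 250.01, 178 and 234 TPM in MPN replicates 1 to 3. Every AML mouse lay below every MPN mouse, with AML replicate 1 lowest and MPN replicate 1 highest. Means were 59.7 ± 29.8 TPM in AML and 221 ± 37.8 TPM in MPN (SD, n = 3 each), which gave a log2 fold change of -1.98 ± 0.35 (SE, limma adjusted p = 0.00624). The 95% interval of the log2 fold change ran from -2.79 to -1.17, and 2.25% of all tested genes had a log2 fold change as low or lower. An exact two-sided permutation test gave p = 0.1, and 3 libraries against 3 can give none smaller. In the RPKM table, where 10.8% of 12811 tested genes were called lower, AML was at 27.6% of MPN. Cybb (ENSMUSG00000015340) is an X-linked gene of the minus strand (GRCm38 chromosome X, 9435252 to 9487771), and the sex of the mice differed between the groups. With a term for sex the log2 fold change was -1.93, about the same, with an adjusted p of 0.0590, and that fit compares AML replicate 3, a male, with MPN, assuming that it varies as the others do. Left out in turn, no single library ended the call (adjusted p of 0.00314 to 0.0358).

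Cyba, the partner of Cybb in the membrane, had the highest TPM of the 5 members in every library, while by RPKM Rac2 exceeded it in each. Its values were 293, 452 and 488 TPM in AML and 564, 598 and 759.8 TPM in MPN, so the groups did not overlap. AML replicate 1 was the lowest of all 6, as it was for Cybb. The means were 411 ± 104 and 640.4 ± 105 TPM (SD, n = 3 each), and the log2 fold change of -0.66 ± 0.21 (SE) missed the threshold with a limma adjusted p of 0.0526. Its 95% interval, -1.16 to -0.16, did not include 0. It passed without AML replicate 3, at -0.80 (adjusted p = 0.0324), and with array weights (-0.44, adjusted p = 0.0227) or quantile normalization (-0.76, adjusted p = 0.0383). When sex entered the fit the estimate shrank to -0.38 (adjusted p = 0.460). Cyba (ENSMUSG00000006519) is on chromosome 8 (122424776 to 122432930, minus strand). A long predicted gene model, Gm20388, runs across it on the other strand, and the sources used here do not give how counting treated strand.

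Ncf1, the organiser that carries the cytosolic subunits to the membrane, was called lower in AML, at 69.5% of MPN. Its levels were 165, 249 and 224 TPM in AML and 336, 283 and 299 TPM in MPN. The groups lay close together, with 249 TPM as the highest AML value and 283 TPM as the lowest MPN value. The log2 fold change was -0.54 ± 0.16 (SE), with a limma adjusted p of 0.0441. The call rested on single libraries: it ended without AML replicate 1 (-0.37, adjusted p = 0.0572) or 3 (-0.59, adjusted p = 0.0541). Without MPN replicate 1, 2 or 3 it ended as well (-0.47, -0.59 and -0.55, adjusted p of 0.133, 0.0844 and 0.104). In the RPKM table it missed the threshold, at -0.49 (adjusted p = 0.0599), as it did when sex entered the fit (-0.44, adjusted p = 0.314). Ncf1 (ENSMUSG00000015950) is on chromosome 5 (134220053 to 134229625, minus strand), and its end overlaps that of Gtf2ird2 on the other strand, which ranged from 8.94 to 11.3 TPM over the 6 libraries.

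Ncf4, whose product binds phosphoinositide in the phagosome membrane, did not pass the test. It stood at 64.5, 131 and 171 TPM in AML and at 219, 179.8 and 181 TPM in MPN. AML replicate 3 thus came close to the lowest MPN mouse, while AML replicate 1 stood far below both. The log2 fold change of -0.76 ± 0.32 (SE) had a limma adjusted p of 0.113, and its 95% interval ran from -1.52 to -0.0058. Without AML replicate 3 it was -1.06 and passed, with an adjusted p of 0.0300, and without AML replicate 1 it was -0.36, with an adjusted p of 0.127. When sex entered the fit it was -0.17 (adjusted p = 0.813), the value nearest to 0 among the 16 alternatives. Ncf4 (ENSMUSG00000071715) is on chromosome 15 (78244801 to 78262580, plus strand).

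Rac2, the haematopoietic Rac GTPase that completes the active enzyme, was the member whose groups overlapped. It stood at 226, 254 and 199 TPM in AML and at 270.1, 218 and 249 TPM in MPN. The second highest of the 6 values was in AML and the lowest was too. The log2 fold change was -0.12 ± 0.13 (SE, limma adjusted p = 0.503), with a 95% interval of -0.43 to 0.19. A decrease as large as that of Cybb lies outside this interval, and a decrease of the size estimated for Ncf1 does too. Rac2 (ENSMUSG00000033220) is on the same chromosome (15, 78559167 to 78572783, minus strand).

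**Figure D2:**
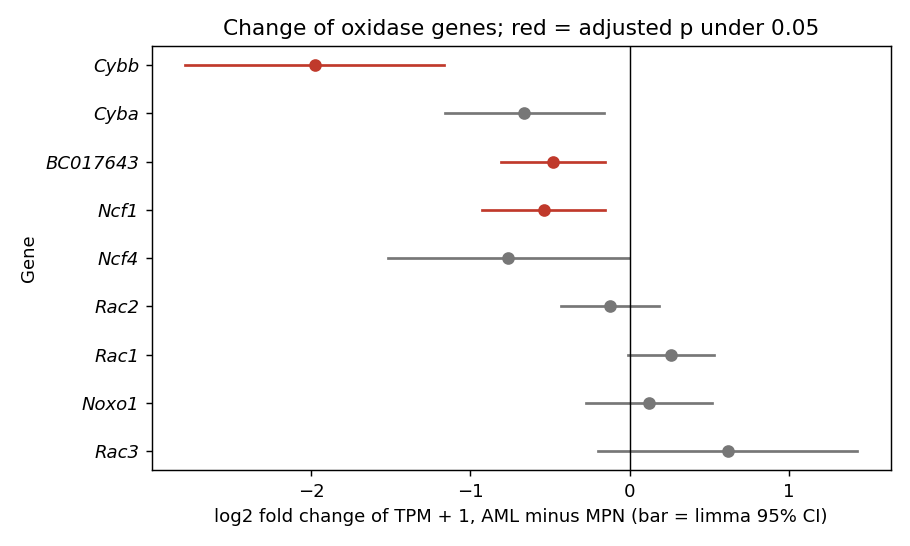
Log2 fold change of TPM + 1, AML minus MPN, for the tested oxidase genes named here, with limma 95% confidence intervals. Red marks an adjusted p under 0.05. Cybb lies at -1.98, far from the other genes, and the intervals of Rac2, Rac1, Noxo1 and Rac3 include 0.

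The members did not move by equal amounts, and the ratios between them within each library show where they parted. On the TPM scale, the ratio of Cyba to Cybb was 9.25, 4.96 and 8.64 in AML replicates 1 to 3, against 2.26, 3.36 and 3.25 for MPN. The pair that forms the membrane core was thus more unequal in each AML library than in any MPN library. The mean log2 ratio of Cyba to Cybb was 2.88 ± 0.49 in AML and 1.54 ± 0.32 in MPN (SD, n = 3 each), a difference of 1.34 with an exact permutation p of 0.1. Relative to Ncf1, Ncf4 and Rac2, Cybb was also lower in every AML library than in any MPN library, with differences of -1.46, -1.23 and -1.88 in the log2 ratio. Of the 10 pairs of members, 5 did not overlap, namely these 4 and Ncf1 to Rac2 (-0.42). Each of the 5 had an exact two-sided p of 0.1 and an adjusted p over the 10 pairs of 0.2, so none could pass in this design. Among Cyba, Ncf1 and Ncf4 the ratios overlapped, with differences of -0.12, 0.11 and 0.23 (exact permutation p of 0.6 to 0.7). Levels of different genes depend on the lengths used. In the RPKM table the Cyba to Cybb ratio ranged from 1.57 to 2.82 for AML and from 0.748 to 1.08 for MPN, with a difference of 1.30 in the mean log2 ratio. Cyba thus exceeded Cybb in every library by TPM but not in every MPN library by RPKM, while the AML libraries had the higher ratios in both tables.

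**Figure D3:**
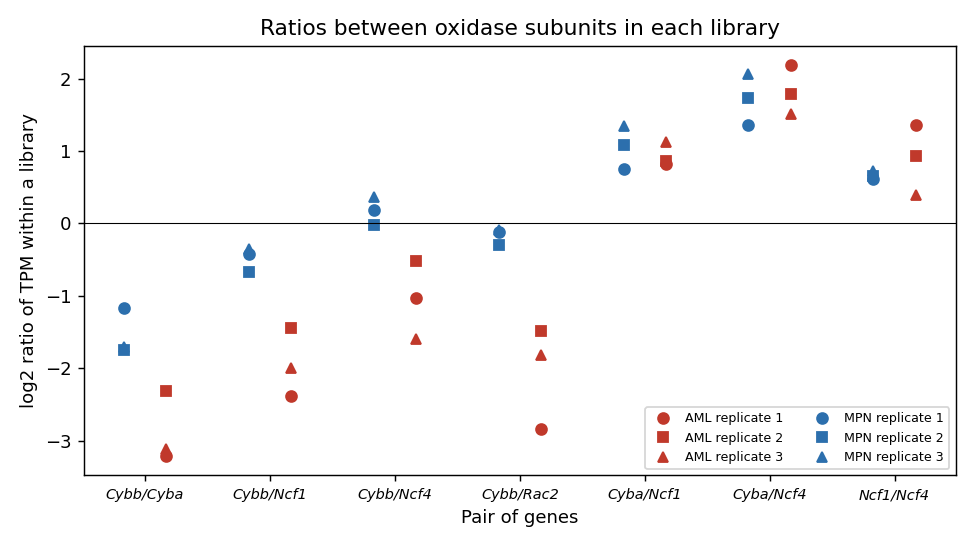
Log2 ratio of TPM between pairs of oxidase subunits within each library, MPN in blue and AML in red. The 4 ratios that include Cybb separate the groups, while ratios among Cyba, Ncf1 and Ncf4 overlap.

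As a share of the summed TPM of the 5 genes, Cybb made up 4.06%, 7.74% and 4.97% in AML replicates 1 to 3, against 15.3%, 12.2% and 13.6% for MPN. Rac2 took 28.9%, 21.6% and 17.5% in AML and 16.5%, 14.97% and 14.5% in MPN. Ncf1 kept a narrow share, 17.3% to 21.2% over all 6 libraries. The sum itself was 780.1 to 1176 TPM in AML and 1456 to 1722 TPM in MPN. AML replicate 1 had the lowest sum and the largest share of Rac2.

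The remaining genes of the enzyme family came from a list of 14 symbols, of which 13 were in the table and 5 were tested, with 1 lower, 0 higher and 4 not past the threshold. BC017643, known as Eros, is an endoplasmic reticulum protein that stabilises the Cybb and Cyba heterodimer. It fell from 109 ± 6.98 to 78.0 ± 12.2 TPM (SD, n = 3 each), at a log2 fold change of -0.48 (limma adjusted p = 0.0370). That call ended without MPN replicate 1, 2 or 3 (-0.48, -0.53 and -0.44, adjusted p of 0.1003, 0.0797 and 0.107), without the variance trend (adjusted p = 0.0553), and when sex was added to the fit (-0.38, adjusted p = 0.310).

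Rac1, the widely expressed relative of Rac2, stood at 335, 319 and 392.1 TPM in AML and 277, 284 and 309 TPM in MPN. By TPM it was higher in each AML library than in any MPN library, by RPKM the groups overlapped (97.3 to 116 and 78.7 to 97.5), and it did not pass (0.26 ± 0.11 SE, limma adjusted p = 0.123), except with array weights (0.27, adjusted p = 0.0390). Rac2 therefore made up 33.6% to 44.3% of the sum of both in AML and 43.4% to 49.4% in MPN, and these ranges overlapped. Rac3 averaged 3.46 and 1.68 TPM and did not pass (0.61, adjusted p = 0.213), although it did without AML replicate 2 (0.96, adjusted p = 0.0494) and with sex in the fit (1.37, adjusted p = 0.0414). Noxo1, an organiser used by other oxidases, stayed between 2.10 and 3.04 TPM. The other catalytic subunits Nox1, Nox4 and Duox1 and the partners Noxa1, Duoxa1 and Duoxa2 reached at most 0.42 TPM in any library, and Nox3 and Duox2 were listed at 0 throughout. Cybb was thus the only one of the listed catalytic subunits that reached 1 TPM in these libraries.

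Genes that act on the enzyme from outside mostly did not pass. Of 22 activators and regulators, all tested, 3 were called lower, Prkcb, Pik3r5 and Pak1, 1 higher, Prkca, and 18 did not pass (median log2 fold change -0.15). Prkcb encodes the conventional protein kinase C isoform that phosphorylates p47phox in neutrophils. It stood at 10.9, 24.8 and 18.6 TPM in AML and at 64.8, 62.6 and 81.2 TPM in MPN, with a log2 fold change of -1.95 ± 0.28 (SE, limma adjusted p = 0.00275), about that of Cybb. Pik3r5, a regulatory subunit of phosphoinositide 3-kinase gamma, went from 72.6 ± 1.26 to 37.2 ± 14.4 TPM (-1.02, adjusted p = 0.0241), and without AML replicate 2 or any 1 of the MPN mice that call ended (adjusted p of 0.0555 to 0.0807). Pak1, a kinase activated by Rac, had a log2 fold change of -1.38 (adjusted p = 0.0438), which did not pass without AML replicate 2 or any 1 of the MPN mice (0.0603 to 0.128). Prkca, another isoform of the kinase, rose from 1.21 ± 0.18 to 3.47 ± 1.32 TPM (0.97, adjusted p = 0.0242, and 0.0570 to 0.0798 without AML replicate 2 or any 1 of the MPN mice).

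Among 12 enzymes that use or remove oxidants, all tested, Sod2 was called higher, Epx lower, and 10 did not pass (median -0.09). Sod2, the mitochondrial superoxide dismutase, rose from 27.8 ± 2.29 to 43.5 ± 7.0 TPM (0.62, limma adjusted p = 0.0192), a call that ended without MPN replicate 2 or 3 (adjusted p = 0.0637 and 0.0626). Epx, the peroxidase of eosinophils, was listed at 1.30, 6.51 and 0 TPM in AML and 89.7, 69.7 and 7.15 TPM in MPN. One MPN mouse thus stood next to the AML mice, and the call (-3.85, adjusted p = 0.0285) ended without AML replicate 1 or 3 or MPN replicate 1 or 2 (0.0560 to 0.0882). Gpx4 and Prdx1, which reduce peroxides, did not pass (0.36 and 0.27, adjusted p = 0.0705 and 0.0932), and Gpx4 did without AML replicate 3 (0.47, adjusted p = 0.0261) or with array weights (0.35, adjusted p = 0.0133). Mpo, the neutrophil peroxidase that turns the product of the oxidase into hypochlorous acid, stood at 1245, 4468 and 2017 TPM in AML and 1977, 1364 and 1199 TPM in MPN. Its groups overlapped, and its order among the AML mice was that of Cybb, with replicate 2 highest and replicate 1 lowest.

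Transcription factors known to act on these genes went in both directions: of 10 tested, 3 were called higher, 3 lower and 4 did not pass (median -0.59). Irf1 fell from 139 ± 44.4 to 50.7 ± 7.68 TPM (-1.40, limma adjusted p = 0.00531). Irf2 fell from 76.3 ± 1.67 to 46.8 ± 3.18 TPM (-0.69, adjusted p = 0.00347). Hoxa10, a homeobox factor reported to repress Cybb and other phagocyte genes, rose from 0.113 ± 0.0231 to 3.36 ± 1.72 TPM (1.90, adjusted p = 0.00297). Cebpa also rose, from 40.6 ± 12.4 to 83.2 ± 8.23 TPM (1.05, adjusted p = 0.00984). Cebpb rose from 8.74 ± 0.42 to 19.9 ± 6.98 TPM (1.04, adjusted p = 0.0188). The alternatives for Cebpa and Cebpb are not reported here. Outside the naming rule, and picked after their values were seen, are Cebpa, Cebpb, Spi1, Irf8 and Cebpe. Spi1, which encodes PU.1, stood at 199.6, 297 and 327 TPM in AML and 339, 372 and 434 TPM in MPN and did not pass (-0.50, adjusted p = 0.0963), but without AML replicate 3 it did (-0.64, adjusted p = 0.0482). Irf8 spread widely in AML, over 202, 652 and 1101 TPM, against 870.1, 975 and 700.4 TPM in MPN (-0.68, adjusted p = 0.373), and its estimate turned to 0.39 with sex in the fit. Cebpe, a factor of late granulocyte development, stood at 25.7, 64.4 and 39.0 TPM in AML and at 83.8, 50.7 and 64.4 TPM in MPN (-0.68, adjusted p = 0.152). Without AML replicate 2 it passed (-1.012, adjusted p = 0.0374). Irf8 and Spi1 were lowest in AML replicate 1 and highest in AML replicate 3, the order of Cyba and Ncf4 in these mice. Cebpe was lowest in AML replicate 1 and highest in AML replicate 2, the order of Cybb and Ncf1. Cebpa and Cebpb, lowest in AML replicate 3, had neither order. Few orders are possible with 3 mice, and a link between these factors and the members was not tested. When sex was added to the fit, the calls of Pik3r5, Pak1, Prkca, Sod2, Epx and Irf2 ended (limma adjusted p of 0.0508 to 0.428), and those of Prkcb, Irf1 and Hoxa10 did not. The call of Pak1 also ended in the RPKM table (adjusted p = 0.0524), without the variance trend (0.0535) and with no filter (0.0795), and that of Epx with no filter (0.0581).

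Marker lists of other cells that the bead selection could hold were read beside the members. Of 11 mature neutrophil markers tested, 9 were called lower and 2 did not pass. These 2 were Cxcr2 (log2 fold change 0.11, limma adjusted p = 0.646) and Retnlg (-0.33, adjusted p = 0.166), and the groups overlapped for both. The lower direction thus did not hold for Cxcr2. The summed TPM of the 11 markers was 7488, 21737 and 15431 in AML and 31903 to 50702 in MPN. Within AML this is the order of Cybb, lowest in replicate 1 and highest in replicate 2. The AML sums of the monocyte, macrophage, primary granule and T and NK cell lists had that order too. Those of the dendritic cell, B cell, eosinophil, erythroid and progenitor lists did not. Of 8 macrophage markers 7 were called lower, with sums of 71.2 to 155 TPM in AML and 339 to 442 TPM in MPN. C1qa, a defining complement gene of tissue macrophages, was listed at 0 in AML replicates 2 and 3 and at 1.12 TPM in replicate 1, against 21.1, 17.2 and 33.7 TPM for MPN. Cd68, a lysosomal protein of macrophages and other phagocytes, was present in all, at 53.1, 121 and 117 TPM in AML replicates 1 to 3, against 212, 239 and 243 TPM for MPN. Of 8 dendritic cell markers 6 were called lower, with sums of 122 to 373 TPM in AML and 913 to 1129 TPM in MPN. Of 8 monocyte markers, 6 were called lower and 1 higher, and their sums overlapped (540.0 to 1628 and 1303 to 1409 TPM). B cells also express the oxidase; 3 of 4 of their tested markers were called lower, with sums of 26.9 to 36.3 and 60.5 to 75.8 TPM. The 6 T and NK cell markers were all called lower and summed to at most 69.2 TPM. Of 4 eosinophil markers tested, 2 were called lower, and of 5 erythroid markers 1 was, with sums that overlapped in both lists. No marker in these lists that was in the table was at 0 in all 6 libraries. The part of these cells in the lower Cybb and Ncf1 was not tested.

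Genes of earlier stages were read in the same way. Of 4 primary granule genes, which mark promyelocytes, 1, Ctsg, was called higher and 0 lower, where 20.1% of all tested genes were called higher. Their sums overlapped, at 3592 to 10069 TPM in AML and 3116 to 4377 TPM in MPN. Among 7 progenitor markers, 6 were called higher and 1, Kit, did not pass, with sums of 826 to 1055 TPM in AML and 378 to 456 TPM in MPN.

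**Figure D4:**
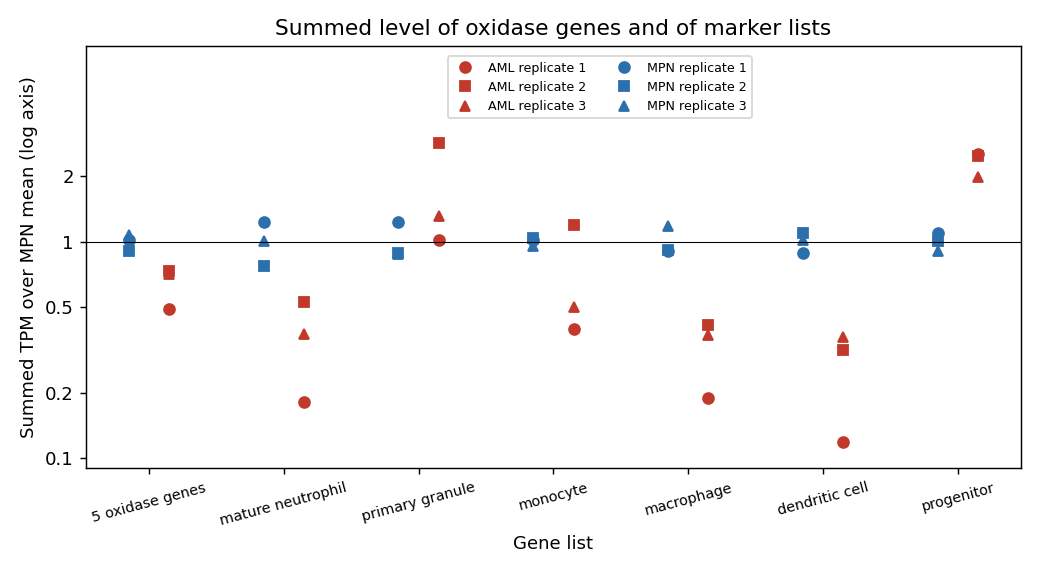
Summed TPM of the 5 oxidase genes and of marker lists in each library, divided by the mean of the MPN libraries, on a log axis. In AML (red) mature neutrophil, macrophage and dendritic cell sums lie below every MPN library (blue), as does the sum of the oxidase genes, while progenitor sums lie above.

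The genes whose profiles over the 6 libraries were closest to each member were found by the root-mean-square difference of log2(TPM + 1) values centred on each gene's mean. For Cybb these were Tnfsf13b, the B cell activating cytokine BAFF, Prkcb and S100a8, a calcium-binding protein abundant in neutrophils, with differences of 0.17, 0.18 and 0.19. The other 4 members were not among these 3, which were picked as the smallest differences: Ncf4 was at 0.69, Cyba at 0.74, Ncf1 at 0.77 and Rac2 at 1.012. S100a8 stood at 2358, 6995 and 4783 TPM in AML and at 15396, 10541 and 13945 TPM in MPN (log2 fold change -1.61, limma adjusted p = 0.0186). That call ended without MPN replicate 1 or 3 (adjusted p = 0.0596 and 0.0713), under quantile normalization (-1.009, adjusted p = 0.112), with no filter (adjusted p = 0.0560) and with sex in the fit (-1.46, adjusted p = 0.159). For Cyba the closest were Cotl1, an actin-binding protein gene, Laptm5, of lysosomal membranes in blood cells, and Rab7l1, a small GTPase gene, at 0.07 to 0.08. Exoc3, Tmem126b and Atp6v0b were closest to Ncf1 (0.05 to 0.07), and Cmtm3 and Plekho2 were among the 3 closest to Ncf4 (0.10 and 0.12). Spata13, Kbtbd2 and Lamp1 were closest to Rac2, at 0.04 to 0.06. Among the members themselves the nearest pair was Cyba and Ncf1, at 0.21.

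**Figure D5:**
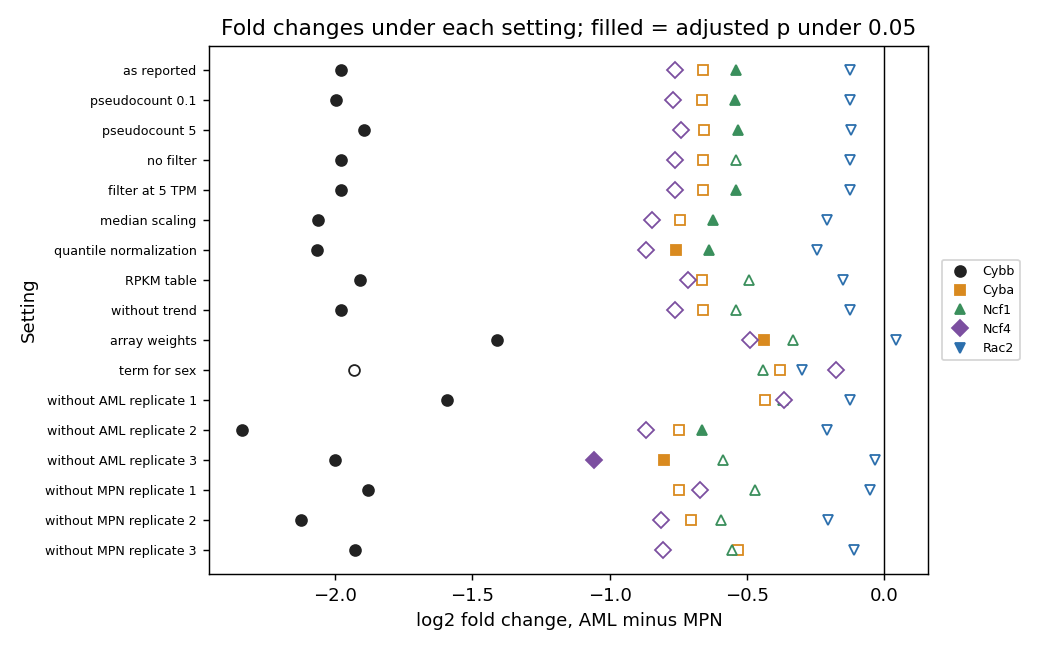
Log2 fold changes of the 5 members, AML minus MPN, as reported and under each of 16 alternative settings, with filled symbols where the adjusted p was under 0.05. Cybb stays between -2.34 and -1.41 and is open only with a term for sex, while Ncf1 and Cyba change between filled and open.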

How the data were processed

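RNA of c-Kit+ splenocytes, 3 AML and 3 MPN libraries, was selected by poly-A and made into strand-specific paired-end libraries, per the labels' protocols. TPM values per gene symbol were deposited by the authors as gene-level RSEM output, 1 column per mouse, per the file headers. RPKM values per Ensembl identifier were deposited by the authors in a second table, which served as a check; 25213 of its 25991 identifiers matched a symbol. Per the submitters' processing notes, TopHat2, RSEM and Bowtie2 were used with builds mm9 and mm10, in roles not given there. The build of each table being uncertain, GENCODE M21 and RefSeq positions on GRCm38 serve for location only. TPM keeps no depth; relative depth came from the steps of low RPKM values.

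Genes that reached 1 TPM in 3 or more libraries were fitted as log2(TPM + 1), pseudocount 1. The fit used limma 3.58.1 (R 4.3.3) with its trend of variance on mean, two-sided, threshold 0.05. Fold changes on this scale understate those of low genes. P-values measure the spread between these mice only. Intervals are limma's. Single values were compared by exact two-sided permutation tests. The fit was tested on simulated data. Named were the members, all oxidase subunit genes, the 4 genes of smallest p in each other list, the 3 closest profiles to each member (mean of at least 5 TPM, no predicted genes), and a few others chosen after their values were seen; some genes counted in the lists are not reported here by name. Members and lists were chosen with earlier results of these data known. Alternatives were pseudocounts of 0.1 and 5, a filter at 5 TPM or none, quantile normalization, median scaling, RPKM, no trend, array weights, a term for sex, and leaving out each library.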

Additional observations from a re-analysis of the deposited data

How the results depend on the processing

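With 3 mice a group, the smallest exact p is 0.1, and genes with a small change cannot be called with certainty. Log2 fold changes of Cybb, Cyba, Ncf1 and Ncf4 were below 0 in all 16 alternatives, and that of Rac2 in 15, turning to 0.043 with array weights. No paired analysis was possible because replicate numbers were given in accession order.

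The number of called genes, 3678, became 1208 with a term for sex and 2009 to 3705 without 1 library. It became 5436 with array weights, 2879 with a filter at 5 TPM and 3482 to 4012 in the other settings. The number of called members, 2, became 1 with no filter, in RPKM and without the trend, 0 with a term for sex, and 1 to 3 without 1 library. Cybb missed the threshold with a term for sex (-1.93). Ncf1 missed it with no filter (-0.54), in RPKM (-0.49), without the trend (-0.54), with array weights (-0.33) and with a term for sex (-0.44). Cyba passed with quantile normalization (-0.76) and array weights (-0.44). Without 1 library the log2 fold change was -2.34 to -1.59 for Cybb, -0.66 to -0.37 for Ncf1, -0.80 to -0.43 for Cyba, -1.06 to -0.36 for Ncf4 and -0.21 to -0.03 for Rac2.

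Other values that turned sign were those of Spata13 (0.015) with array weights, and Irf8 with a term for sex (0.39) and without AML replicate 1 (0.010); leaving out 1 library gave Irf8 values from -1.21 to 0.010. Differences in the log2 ratio also turned, for Cyba to Ncf4 without AML replicate 1 (-0.070) or MPN replicate 1 (-0.073), Ncf1 to Ncf4 without AML replicate 1 (-0.0046) and Cyba to Ncf1 without MPN replicate 3 (0.024). Leaving out 1 library gave -0.073 to 0.280, -0.0046 to 0.477 and -0.277 to 0.024 for these ratios. The cause was not tested. Beside the members, 28 called genes were followed through the alternatives, among them some that are not named here. Of these, 12 were called in the same direction in every alternative in which they were tested. Without MPN replicate 1, which leaves 1 sequencing run, Cybb passed (-1.88, adjusted p = 0.0241) and Ncf1 did not (-0.47, adjusted p = 0.133).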

Other observations

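The genes next to the members on the chromosome were looked at after the data had been seen, taking the 3 nearest protein-coding genes on each side. Of these 30 genes, 16 were tested, with 5 called higher in AML, 2 called lower and 9 not past the threshold. Near Ncf4, Ift27 was called higher, at 29.7 to 42.6 TPM in AML and 18.9 to 20.8 TPM in MPN (log2 fold change 0.88, limma adjusted p = 0.00743). It did not pass with sex in the fit (0.57). Also beside Ncf4 lie Csf2rb2 and Csf2rb, which encode beta subunits of receptors for interleukin-3. That of Csf2rb also serves the receptors for interleukin-5 and GM-CSF. Csf2rb2 stood at 7.84, 25.1 and 22.6 TPM in AML and at 51.0, 50.8 and 51.7 TPM in MPN (log2 fold change -1.57, limma adjusted p = 0.0204). Its call ended without MPN replicate 1, 2 or 3 (adjusted p of 0.0570, 0.0591 and 0.0735), as it did when sex was added (-1.15, adjusted p = 0.226). Csf2rb stood at 102 to 126 TPM in AML and 142 to 155 TPM in MPN and did not pass (-0.35, adjusted p = 0.0519), but did with median scaling (-0.44, adjusted p = 0.0394), quantile normalization (-0.44, adjusted p = 0.0346) and array weights (-0.24, adjusted p = 0.0451).

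Around Rac2, whose own level did not pass, Il2rb, a receptor subunit for interleukin-2, was at 0.79 to 1.05 TPM in AML and 8.02 to 9.75 TPM in MPN (-2.40, limma adjusted p = 0.000208). C1qtnf6, a secreted protein of the C1q and tumour necrosis factor family, was at 21.4 to 25.2 TPM in AML and 3.62 to 5.74 TPM in MPN (2.14, adjusted p = 0.000402). Mfng, a glycosyltransferase that modifies Notch receptors, also passed upward (0.89, adjusted p = 0.00666). Next to Ncf1, which was called lower, the transcription factor genes Gtf2i and Gtf2ird1 rose (0.83 and 0.98, adjusted p = 0.00236 and 0.0100), though Gtf2ird1 did not pass with sex in the fit (0.87, adjusted p = 0.120). The tested neighbours of Cyba and Cybb did not pass.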
